A study of Homo sapiens with 12 samples.

Results

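The 50 protein-coding genes whose symbols begin with PSMA to PSMG followed by a number were followed in 3 human leukemia cell lines. They were picked by symbol from the 60671 genes of the count table, a choice made with earlier results of these data known. Of the 50, 46 had enough reads to be tested among 18626 tested genes. PSMA8, PSMB8, PSMB9 and PSMB11 did not pass the filter on low counts. The proteasome is the protease that degrades proteins tagged with ubiquitin. Its barrel, the 20S core, stacks rings of alpha subunits (PSMA) around rings of beta subunits (PSMB), and only PSMB5, PSMB6 and PSMB7 carry the active sites of the ordinary form. In immune tissue and after interferon-gamma these are replaced by PSMB8, PSMB9 and PSMB10, which gives the immunoproteasome. The 19S cap of ATPases (PSMC) and other subunits (PSMD) binds ubiquitin chains and unfolds substrates, the activators PSME1 to PSME4 bind the barrel in place of the cap, and PSMG1 to PSMG4 help the barrel to assemble. PSMC3IP, a recombination factor, and PSME3IP1 share the symbol pattern but are binding partners and not subunits.

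K562, the parental line, is a human erythroleukemia line that carries BCR-ABL. K/VP.5 is a clonal line selected from K562 by growth in etoposide, a drug that poisons DNA topoisomerase II. K562/SSedit-2, the edited clone, is 1 clone of K562 in which a 5′ splice site of TOP2A was silenced by CRISPR/Cas9 with homology-directed repair in 2 of 3 alleles, and the labels name no drug given to any of the 12 RNA samples. Each line had 4 replicates, and nothing in the labels says that these came from separate cultures, so p-values measure the spread between these samples, which may be technical. Each derived line is a single clone, so an effect of resistance or of editing and a difference between clones cannot be told apart.

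The libraries held 28981722 to 43648830 counted reads. TOP2A, the edited gene, was at 353 to 488 counts per 1000000 tested reads (CPM) in K562, 268 to 282 CPM in K/VP.5 and 177 to 208 CPM in K562/SSedit-2, with no overlap between lines. All 10 erythroid markers of K562 were detected in every line, with a summed level of 1562 to 1786, 1398 to 1657 and 1821 to 2171 CPM in the parental line, the selected line and the edited clone. The 8 markers of other blood cells summed to 26.3 to 54.6, 11.9 to 15.4 and 39.4 to 56.3 CPM in the same order. Most of that sum came from the T cell gene CD3D, at means of 32.8, 8.34 and 43.1 CPM, while ITGAM, a myeloid gene, rose in K/VP.5 from 0.773 to 2.21 CPM (adjusted p = 2.44e-05). The part of these markers in the results below was not tested. Replicate 1 of K562 stood apart from the other 3 K562 libraries for 7 of the proteasome genes (PSMA1, PSMC6, PSMD3, PSMD7, PSMD8, PSMF1 and PSMG2), and counts are therefore given with and without it. In bulk RNA, fewer cells with a transcript and less transcript per cell cannot be told apart.

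Together the 50 genes took 7246 ± 61.0 CPM in K562, 6847 ± 257 CPM in K/VP.5 and 7574 ± 287 CPM in the edited clone (mean ± SD, n = 4). The K/VP.5 samples ranged from 6486 to 7089 CPM and lay below every K562 sample (7173 to 7320 CPM), while the K562/SSedit-2 samples (7379 to 7999 CPM) lay above both. These ranges rest on TMM scaling. Under RLE scaling the sums of K562 (7137 to 7355 CPM) overlapped those of K/VP.5 (6367 to 7140 CPM), and the edited clone (7382 to 8065 CPM) stayed above both. Under upper-quartile scaling the sums were 6650 to 7321 CPM in K562 and 6698 to 7218 CPM in the selected line, and 7248 to 7979 CPM in the edited clone, and those of K562 overlapped both others. The tested members varied little between replicates, with a median coefficient of variation of 8.75%, 5.71% and 6.19% in the parental, the etoposide-selected and the edited line, against 15.6%, 9.65% and 12.1% over all tested genes. Their differences between lines were also narrow. The SD of the log2 fold changes was 0.35 over the 46 members and 1.26 over all tested genes for K/VP.5 against K562.

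Levels can be compared between genes only per length, and here the length is that of all annotated exon bases of a gene. In K562 the most abundant transcripts per kilobase came from PSMA7, a subunit of the alpha ring, at 186.5 ± 7.36 CPM per kb, and from the beta subunits PSMB5 (170 ± 17.1), PSMB3 (166 ± 28.6) and PSMB7 (157 ± 15.0). The means of PSMB3 and PSMB7 lay within 1 SD of that of PSMB5, as did that of PSMA7, so the place of PSMB5 among these 4 genes is not resolved beyond their spread, whereas PSMA7 and PSMB7 lie further apart than their SDs. PSMB6, the third active-site subunit, was at 79.2 ± 4.48 CPM per kb. In the cap the highest means were those of PSMD2, a large scaffold subunit, at 120 ± 7.43 CPM per kb, and of PSMC3, an ATPase, at 114 ± 12.9. These 2 means lay within 1 SD of each other, so their order is not resolved. In K/VP.5 PSMC3 was the higher, at 122.5 ± 4.64 CPM per kb beside 88.3 ± 1.36 for PSMD2. The chaperone PSMD9 was at 1.90 ± 0.0482 CPM per kb and PSMB10 at 2.19 ± 0.184 CPM per kb. The lowest tested member was PSMA2, an alpha subunit, at 0.557 ± 0.0523 CPM per kb. Over the longest coding transcript in place of all exon bases the order changed, to PSMA7 (340 CPM per kb), PSMB4 (315), PSMB7 (286), PSMB3 (254.5) and PSMB5 (236), with PSMD2 (204) and PSMD4 (173) leading the cap. PSMA2 stayed the lowest tested member at 3.21 CPM per kb.

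**Figure D1:**
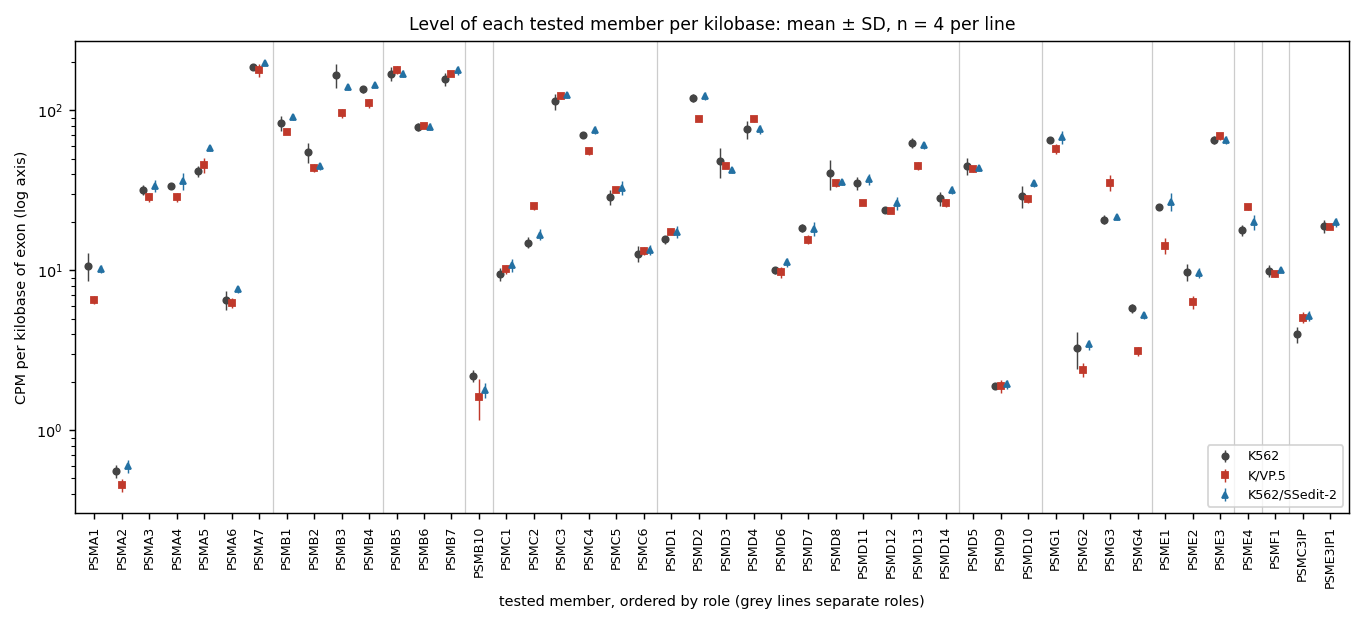
Level of the 46 tested members in CPM per kilobase of annotated exon (log axis), mean ± SD over 4 replicates for each of the lines, ordered by role. In K562 the genes run from 0.557 for PSMA2 to 186.5 for PSMA7, and most sit at close to the same height in all 3 lines.

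Some of these levels are uncertain because other annotated genes share the exons. All of the exon bases of the canonical PSMA2 transcript (100%) also belong to the read-through gene ENSG00000256646 on the same strand. Read-through genes likewise cover 81.4% of the canonical PSMA6 transcript, 67.0% of that of PSMA1 and 56.1% of that of PSMB10. On the opposite strand NRDE2 covers 83.2% of the PSMC1 transcript, MLX covers 57.2% of that of PSMC3IP, and ENSG00000259972 covers 51.6% of that of PSMD7. How the counting treated shared bases or strand is not given in the sources used here. Among 51 further genes with such symbols that code for no protein, the 44 pseudogenes summed to 15.7 CPM and the 7 long non-coding RNAs to 19.97 CPM in K562.

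The first comparison asked how the subunit genes differed in drug-selected K/VP.5 cells from parental K562. Of the 46 tested members, 18 fell and 6 rose, and none changed by as much as 2-fold. The genes that fell included all 4 beta subunits without an active site (PSMB1 to PSMB4), the 11S activators PSME1 and PSME2, the barrel chaperones PSMG1, PSMG2 and PSMG4, and 5 cap subunits, whereas the active-site subunits PSMB5, PSMB6 and PSMB7 did not pass the test. Those that rose were the ATPase PSMC2, the barrel chaperone PSMG3, the nuclear activator PSME4, the recombination factor PSMC3IP, the ubiquitin receptor PSMD4 and the scaffold subunit PSMD1. The test was edgeR's quasi-likelihood F test, adjusted by Benjamini-Hochberg over the 18626 tested genes, and a gene was called at an adjusted p under 0.1. By the same rule 26.1% of all tested genes fell and 26.2% rose, against 39.1% and 13.0% of the members. All members are protein-coding, and of the 12869 tested protein-coding genes 3998 fell and 3680 rose. A 2-fold change at that threshold was reached by 15.6% of all genes and by 0 of the 46 members in every alternative tried, although 24 members had an unadjusted p under 0.05. The 4 replicates of the lines did not overlap for 14 members that were lower and 6 that were higher, which is 30.4% and 13.0% of members beside 21.1% and 21.9% of all genes. The median log2 fold change was -0.06 over the members and 0.01 over all tested genes. When 1 replicate was left out, the median of the members ran from -0.099 to -0.041.

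Upper-quartile scaling, which moved the median of all genes by 0.07 on the log2 scale, gave 13 members lower and 9 higher, with 19 of the 24 calls shared. Without K562 replicate 1, 21 members were lower and 4 higher, and 22 of the 24 calls were shared. Under one or more alternatives PSMA3, PSMA6, PSMD8, PSMD10 and PSMD14 were also called lower and PSMA5, PSMB7 and PSMC5 higher.

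**Figure D2:**
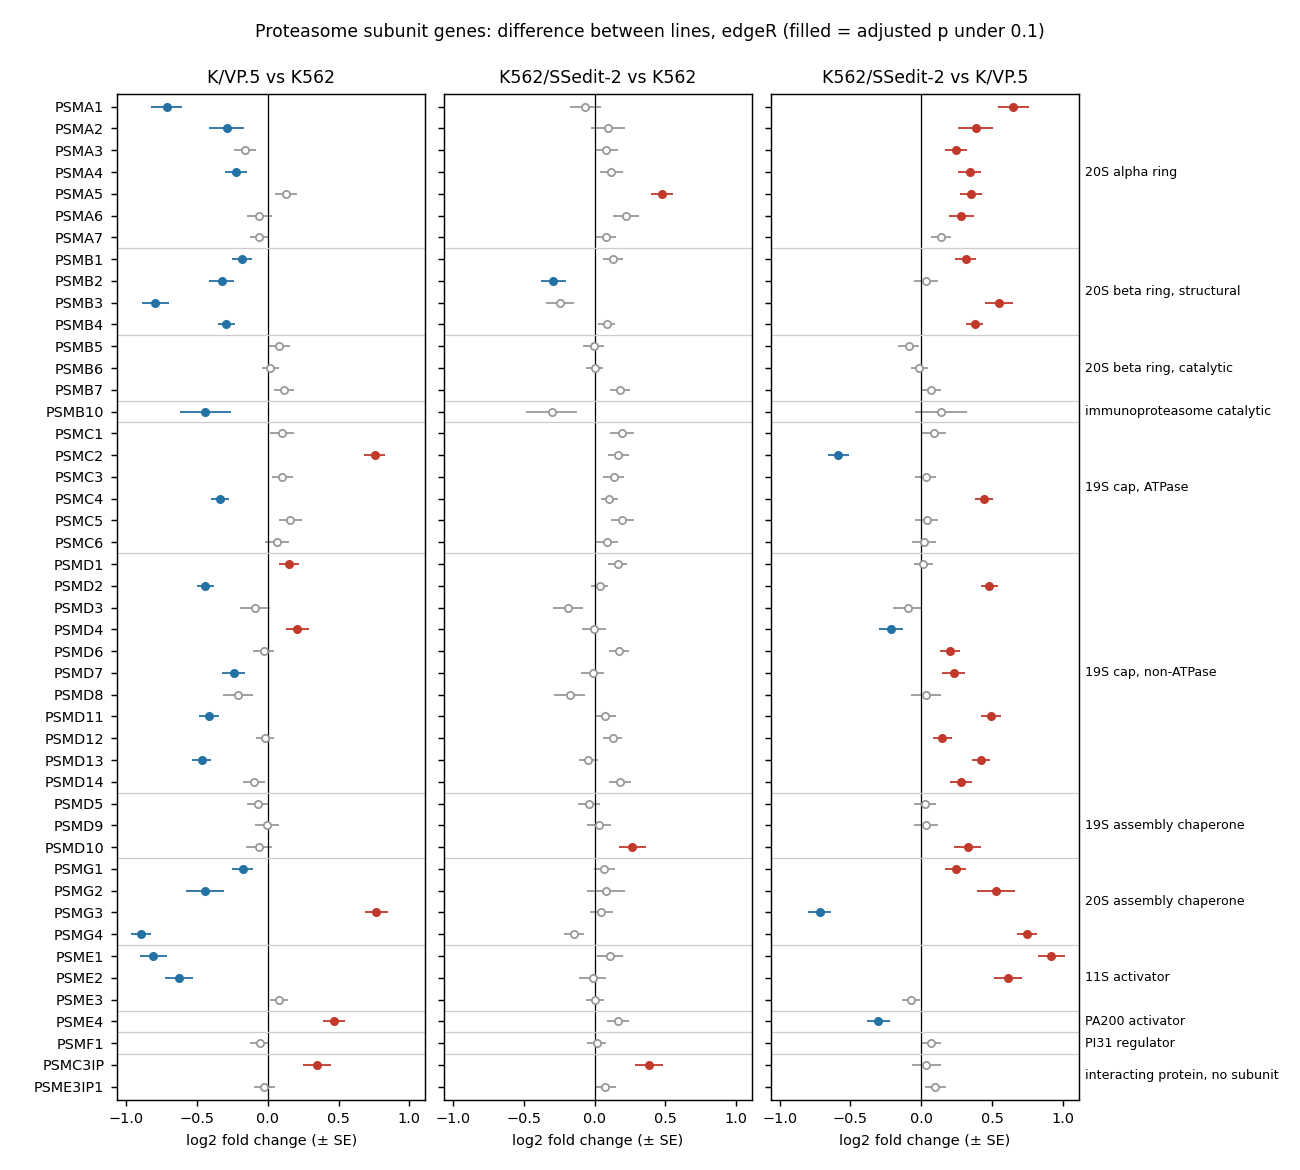
Log2 fold change ± SE of the 46 tested members in the 3 comparisons (edgeR), grouped by role, with filled points for an adjusted p under 0.1 (red higher, blue lower). In the left panel the 4 structural beta subunits lie left of 0 and the 3 catalytic ones near 0. In the middle panel 4 points are filled, and the right panel shows most filled points to the right of 0.

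Within the barrel, 7 of the 14 ordinary core genes fell in K/VP.5 and none rose, with a median log2 fold change of -0.17, beside 26.1% of all tested genes that fell and 26.2% that rose. Without K/VP.5 replicate 4 only 4 fell, and under upper-quartile scaling 4 fell and 2 rose. None of the 3 ordinary active-site subunits passed the test in any comparison under the model with line as its only term, TMM scaling and all 12 samples. PSMB5, whose site cuts after hydrophobic residues and is the main target of proteasome inhibitors, was at 228, 287, 281 and 259 CPM in K562 replicates 1 to 4, at 285, 255, 285 and 293 CPM in K/VP.5 and at 248, 256, 273 and 274 CPM in K562/SSedit-2. PSMB6, with the caspase-like site, was at 106, 121, 119 and 113 CPM in K562, at 117, 112, 118 and 118 CPM in K/VP.5 and at 110, 112, 116 and 122 CPM in K562/SSedit-2. Both genes overlapped between all lines. PSMB7, with the trypsin-like site, was at 243, 281, 299 and 300.4 CPM in K562, at 313, 301, 301 and 301 CPM in K/VP.5 and at 301, 307, 325 and 343 CPM in K562/SSedit-2. Its K562 samples were the lowest of the 3 lines, without overlap, but the log2 fold changes of 0.11 ± 0.07 in K/VP.5 and 0.18 ± 0.07 in the edited clone did not pass the test (adjusted p = 0.207 and 0.127). In the edited clone PSMB7 passed it when blocked by replicate number (0.18, adjusted p = 0.0903) and without K562 replicate 4 (0.22, adjusted p = 0.0946). In K/VP.5 it passed under upper-quartile scaling (0.18, adjusted p = 0.0966) and was at 0.03 without K562 replicate 1.

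All 4 structural beta subunits passed the test in K/VP.5, and whether they differed from the active-site subunits was not tested. PSMB3 was at 236, 202, 181 and 157 CPM in K562, at 118, 102, 114 and 115 CPM in K/VP.5 and at 170, 170, 162 and 154 CPM in K562/SSedit-2. Every K/VP.5 sample lay below every sample of the other lines, and the fall in K/VP.5 was -0.79 ± 0.10 on the log2 scale, a ratio of 0.578 (adjusted p = 4.96e-06). PSMB2 was at 284, 261, 245 and 202 CPM in K562, at 199, 182, 206 and 206 CPM in K/VP.5 and at 192, 201, 219 and 198 CPM in K562/SSedit-2. Its log2 fold change in K/VP.5 was -0.32 ± 0.09 (adjusted p = 6.39e-03), with K562 replicate 4 inside the K/VP.5 range. PSMB4, whose long tail reaches into the facing beta ring, fell by 0.29 ± 0.06 and PSMB1 by 0.18 ± 0.07 on the log2 scale (adjusted p = 7.68e-04 and 0.0484), and the PSMB1 call was lost under 3 of 17 alternatives.

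In the alpha ring PSMA1, PSMA4 and PSMA2 fell in K/VP.5, while PSMA3, PSMA5, PSMA6 and PSMA7 did not pass the test. Without K562 replicate 1 PSMA6 moved from -0.06 to -0.16 and was called (adjusted p = 0.0806). PSMA1 was at 42.1, 27.9, 30.2 and 30.2 CPM in K562, at 19.7, 18.5, 19.9 and 21.4 CPM in K/VP.5 and at 31.8, 32.5, 28.3 and 32.0 CPM in K562/SSedit-2. The K/VP.5 samples lay below all others, with a log2 fold change of -0.71 ± 0.11 against K562 (adjusted p = 5.49e-05) and of -0.59 ± 0.08 without K562 replicate 1. PSMA4 fell by 0.22 ± 0.08 and PSMA2 by 0.29 ± 0.12 on the log2 scale (adjusted p = 0.0318 and 0.0674). The PSMA4 call was lost under 2 and the PSMA2 call under 7 of 17 alternatives.

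The immunoproteasome subunits had few or no reads in all 3 lines. PSMB8 had 1, 3, 0 and 0 counts in the 4 K562 libraries, 1, 1, 0 and 0 counts in those of K/VP.5 and 1, 2, 0 and 0 counts in those of the edited clone. These counts were at or under the 3 counts that a count of 0 allows, which is 0.0691 to 0.102 CPM across these libraries, so no fold is given for it. PSMB9 had 6, 16, 8 and 4 counts in K562, 9, 6, 6 and 5 counts in K/VP.5, and 6, 7, 3 and 0 counts in the edited clone, which overlap throughout. PSMB10 was the only one of the 3 above the filter, at 3.93, 3.52, 3.20 and 3.57 CPM in K562, at 1.72, 2.31, 3.36 and 3.15 CPM in K/VP.5 and at 2.82, 2.97, 3.25 and 2.51 CPM in the edited clone. Its log2 fold change in K/VP.5 against K562 was -0.44 ± 0.18 (adjusted p = 0.0593), but K/VP.5 replicate 3 lay inside the K562 range. The call was lost under 4 of 17 alternatives, and without K/VP.5 replicate 1, the lowest sample, the value was -0.29 (adjusted p = 0.177). The thymus form PSMB11 and the testis form PSMA8 were at mean levels of 0.00608 and 0.00673 CPM in K562.

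A ratio within a sample needs no scaling between libraries, but the read-through gene over PSMB10, ENSG00000261884, held 3.54 CPM of its own in K562, close to the level of PSMB10, and how shared reads were divided is not given in the sources used here. PSMB10 reads were 1.28% ± 0.236 of PSMB7 reads in K562, 0.871% ± 0.261 in K/VP.5, and 0.909% ± 0.122 of them in the edited clone (mean ± SD, n = 4). PSMB9 reads were 0.182% ± 0.0914, 0.157% ± 0.0241 and 0.1003% ± 0.0769 of PSMB6 reads in the same order. The log2 ratio of PSMB10 to PSMB7 differed from K562 by -0.59 for K/VP.5, with an exact permutation p of 0.0571, and by -0.49 for the edited clone, with an exact permutation p of 0.0286, the smallest that 4 against 4 samples allow. Over the 6 two-sided ratio tests both had an adjusted p of 0.171, and the other 4 had an unadjusted exact permutation p of 0.200 to 0.800. Blocked by replicate number, the exact test of the difference between the edited clone and K562 gave p = 0.125, the smallest that 4 pairs allow, with the ratio lower in all 4 pairs.

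**Figure D3:**
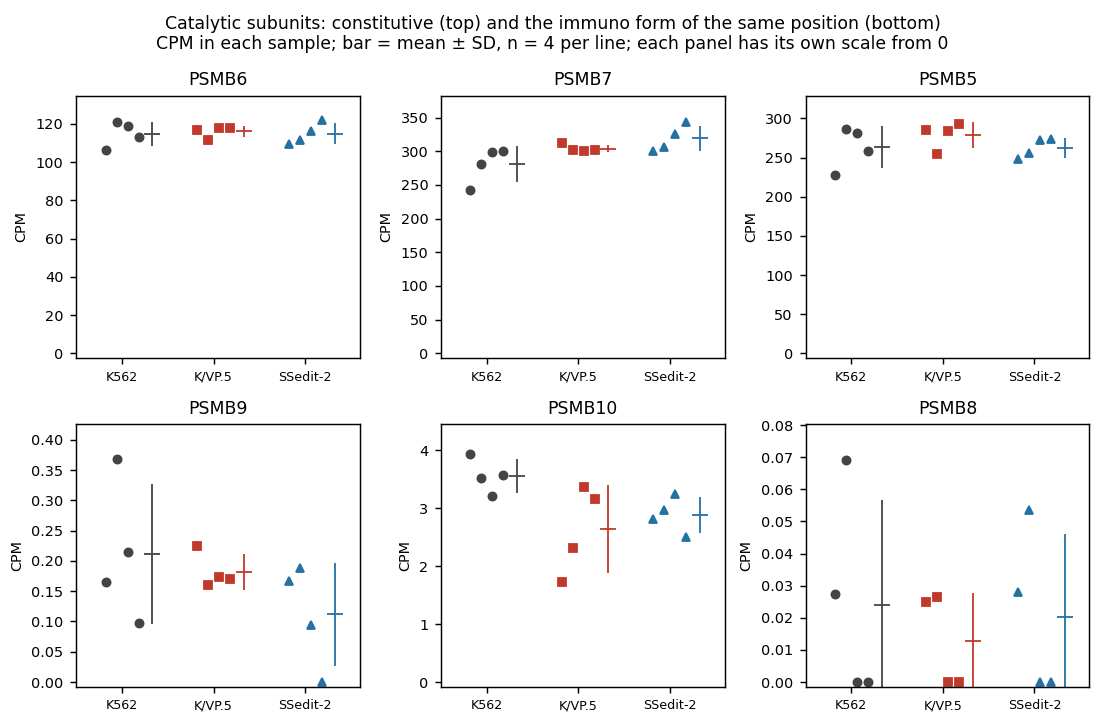
CPM of the 3 ordinary active-site subunits (top) and of the immune subunit that takes the same place (bottom) in each of the 12 samples, with mean ± SD per line (n = 4). The vertical scales differ by panel: PSMB7 reaches 343 CPM, PSMB10 stays below 4 CPM and PSMB8 holds at most 3 counts in a library.

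Of the 17 cap subunits, 5 fell and 3 rose in K/VP.5, with a median log2 fold change of -0.03, beside 26.1% of all tested genes that fell and 26.2% that rose. PSMC2, an ATPase of the ring that opens the barrel, was at 117, 124, 138 and 137 CPM in K562, at 227, 202, 226 and 216 CPM in K/VP.5 and at 136, 139, 143 and 161 CPM in K562/SSedit-2. The K/VP.5 samples lay above all others, and the rise was 0.76 ± 0.07 on the log2 scale, a ratio of 1.69 (adjusted p = 3.40e-07). Another ATPase, PSMC4, fell by 0.34 ± 0.06 on the log2 scale (adjusted p = 2.31e-04), and PSMC1, PSMC3, PSMC5 and PSMC6 had log2 fold changes of 0.06 to 0.16 that did not pass the test and were -0.04 to 0.08 without K562 replicate 1. A processed pseudogene of PSMC2, PSMC2P1, rose with it from 1.36 to 2.89 CPM (log2 fold change 1.08, adjusted p = 2.26e-03), and which gene its reads came from cannot be told apart.

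Among the cap subunits without ATPase activity, PSMD13 and PSMD2 fell by 0.47 ± 0.07 and 0.44 ± 0.06 on the log2 scale, PSMD11 by 0.41 ± 0.07 and PSMD7 by 0.24 ± 0.08. PSMD4 rose by 0.21 ± 0.08 and PSMD1 by 0.15 ± 0.07 (adjusted p = 0.0522 and 0.0814), and these calls were lost under 5 and 12 of 17 alternatives, among them that without K562 replicate 1, where PSMD4 was at 0.10 and PSMD1 at 0.11. PSMD14, the enzyme that cuts ubiquitin off the substrate, had a log2 fold change of -0.10 ± 0.08 (adjusted p = 0.334), which without K562 replicate 1 became a call at -0.19 ± 0.06 (adjusted p = 0.0216). The cap chaperones PSMD5, PSMD9 and PSMD10 had log2 fold changes of -0.07, -0.005 and -0.06 in K/VP.5, and none of them passed the test. Without K562 replicate 1 PSMD10 passed it at -0.18 ± 0.06 (adjusted p = 0.0265), and PSMD5 was at 0.001.

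The 4 chaperones of the barrel moved in both directions in K/VP.5, with PSMG4 and PSMG3 at the ends of the range of members, though not apart from PSME1 and PSMC2 beyond their SEs. PSMG1 pairs with PSMG2 and PSMG3 with PSMG4 while the alpha ring is built. PSMG4 was at 61.7, 64.8, 57.3 and 57.2 CPM in K562, at 29.9, 32.4, 32.8 and 34.9 CPM in K/VP.5 and at 54.1, 58.3, 54.8 and 51.0 CPM in K562/SSedit-2. Its K/VP.5 samples lay below all others, at a ratio of 0.539 to K562 and a log2 fold change of -0.89 ± 0.07 (adjusted p = 2.96e-08). PSMG3, the partner of PSMG4, was at 38.1, 43.6, 42.6 and 40.0 CPM in K562, at 73.5, 59.4, 68.7 and 78.0 CPM in K/VP.5 and at 40.6, 41.8, 44.3 and 43.4 CPM in K562/SSedit-2. It moved the other way, with a log2 fold change of 0.77 ± 0.08 (ratio 1.70, adjusted p = 8.83e-07) and every K/VP.5 sample above all others. Its antisense RNA, PSMG3-AS1, rose from 4.33 to 12.4 CPM (log2 fold change 1.51, adjusted p = 3.78e-08). PSMG3-AS1 shares 3.04% of the PSMG3 exon bases and none of its canonical transcript. PSMG2 had a log2 fold change of -0.45 ± 0.13 (-0.27 ± 0.08 without K562 replicate 1, where adjusted p = 0.0110) and PSMG1 of -0.17 ± 0.07, a call that was lost under 4 of 17 alternatives.

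**Figure D4:**
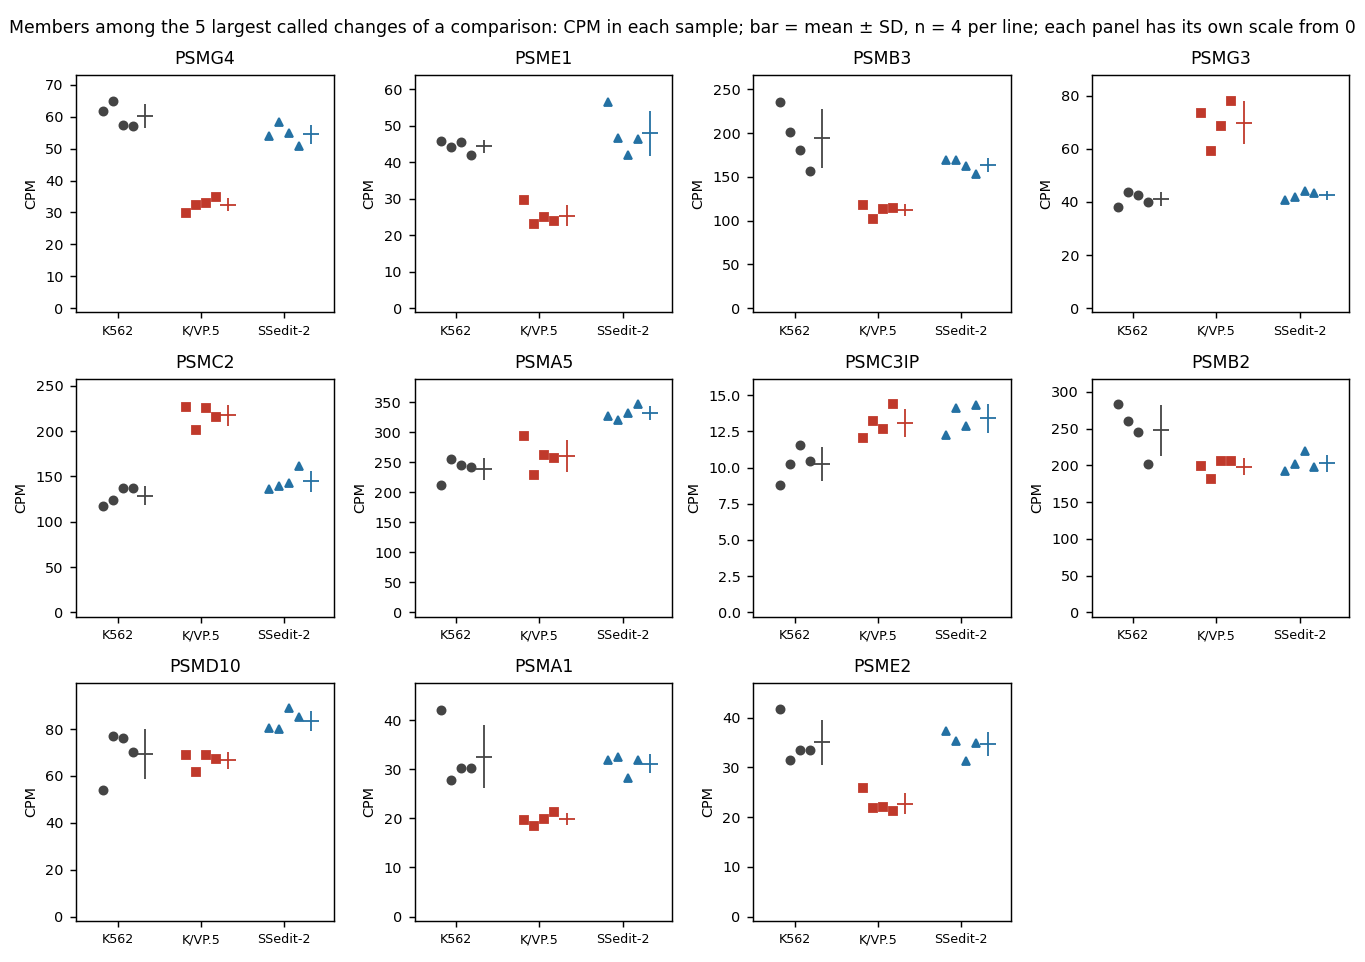
CPM in each of the 12 samples for the 11 members, active-site genes aside, that were among the 5 largest called changes of any comparison, with mean ± SD per line (n = 4) and a vertical scale from 0 in each panel. PSMG4, PSME1, PSMB3, PSMA1 and PSME2 are lowest in K/VP.5, PSMG3 and PSMC2 are highest there, and PSMA5 is highest in K562/SSedit-2.

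Of the activators, PSME1 and PSME2 form together the 11S ring that interferon-gamma induces, and PSME3 forms a nuclear ring of its own. PSME1 was at 45.9, 44.2, 45.6 and 42.0 CPM in K562, at 29.5, 23.1, 24.9 and 23.9 CPM in K/VP.5 and at 56.5, 46.5, 42.0 and 46.5 CPM in K562/SSedit-2. PSME2 was at 41.7, 31.4, 33.6 and 33.6 CPM in K562, at 25.8, 21.8, 21.98 and 21.2 CPM in K/VP.5 and at 37.3, 35.3, 31.3 and 34.8 CPM in K562/SSedit-2. Both were lower in every K/VP.5 sample than in any other sample. The log2 fold changes against K562 were -0.81 ± 0.10 for PSME1 (ratio 0.571, adjusted p = 2.81e-06) and -0.63 ± 0.10 for PSME2 (ratio 0.648, adjusted p = 4.83e-05). PSME3 was far more abundant, at 336 ± 19.7 CPM in K562, and its log2 fold change of 0.08 ± 0.07 did not pass the test. PSME4, the PA200 activator, rose by 0.47 ± 0.08 on the log2 scale, from 186 ± 14.7 to 257 ± 10.6 CPM (adjusted p = 1.25e-04). The inhibitor PSMF1 had a log2 fold change of -0.06 ± 0.07.

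The promoters are shown where members that fell or rose in K/VP.5 hold a short sequence known to be read by interferon or oxidative stress factors. RefSeq promoters (GRCh38.p14, 250 bases before to 50 after the start site) were matched by symbol for 44 of the 50 members, and 35116 promoters of all genes served as background. The core of the interferon-stimulated response element was searched as GAAANNGAA on both strands. It was held by 7 member promoters (15.9%) and by 8.11% of all promoters. Of the 17 genes with a promoter that fell in K/VP.5, 6 held it (PSMA4, PSMB10, PSMB4, PSME1, PSME2 and PSMG4), as did PSMC2 among the 4 that rose and 0 of the 19 that were not called. The stretches of the 5 promoters whose motif lies wholly upstream of the start site are given along the gene's strand, with the motif in capitals and its first base counted from the start site.
PSME2 (motif at -28, minus strand, chr14:24146611-24146658): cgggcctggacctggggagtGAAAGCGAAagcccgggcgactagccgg
PSMB10 (motif at -21, minus strand, chr16:67936851-67936891): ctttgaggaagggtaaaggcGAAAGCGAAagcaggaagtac
PSMG4 (motif at -33, plus strand, chr6:3258894-3258942): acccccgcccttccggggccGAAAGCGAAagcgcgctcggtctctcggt
PSMA4 (motif at -240, plus strand, chr15:78540155-78540193): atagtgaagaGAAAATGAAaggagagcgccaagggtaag
PSMB4 (motif at -68, plus strand, chr1:151399485-151399533): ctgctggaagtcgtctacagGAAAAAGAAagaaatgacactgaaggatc
The match of PSMC2 starts at -7 and crosses the start site, and that of PSME1 lies downstream of it. PSME2, PSMB10 and PSMG4 share the same 9 letters within 40 bases of the start site. A match of letters describes the window and does not show that a factor binds there.

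The core of the antioxidant response element, which factors of the NFE2L1 and NFE2L2 family read, was searched as TGACNNNGC on both strands. It was held by 13 member promoters (29.5%) and by 13.3% of all promoters. The genes that fell held it in 6 of 17, those that rose in 2 of 4 and those not called in 4 of 19. Of those called, the stretches with the motif upstream of the start site in PSME1, PSME2, PSMB3, PSMG2, PSMG1 and PSME4 are given in the same way.
PSME1 (motif at -86, plus strand, chr14:24136088-24136136): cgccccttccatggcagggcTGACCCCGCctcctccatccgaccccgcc
PSME2 (motif at -175, minus strand, chr14:24146757-24146805): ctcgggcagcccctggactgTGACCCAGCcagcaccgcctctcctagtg
PSMB3 (motif at -104, plus strand, chr17:38752617-38752665): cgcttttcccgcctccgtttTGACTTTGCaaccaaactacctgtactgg
PSMG2 (motif at -39, plus strand, chr18:12658679-12658727): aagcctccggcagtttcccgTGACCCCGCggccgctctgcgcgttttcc
PSMG1 (motif at -183, minus strand, chr21:39183606-39183654): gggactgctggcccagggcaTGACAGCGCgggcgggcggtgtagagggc
PSME4 (motif at -34, minus strand, motif on the other strand, chr2:53970999-53971047): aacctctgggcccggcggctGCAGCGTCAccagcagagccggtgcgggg
The motif thus stood in promoters of genes that moved in both directions. CCAAT was held by 47.7% of member promoters and 34.6% of all, by 5 of the 17 that fell, 2 of the 4 that rose and 12 of the 19 not called. The gamma-activated site TTCNNNGAA was held by 11.4% of member promoters and 7.66% of all.

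The members lie on many chromosomes, and some moved with their neighbourhood. For each member the median log2 fold change of the tested protein-coding genes within 5 Mb was set beside its own. PSMG3 on chromosome 7 rose by 0.77, and its 53 neighbours had a median of 0.76. PSMA1 and PSMD13 on chromosome 11 fell by 0.71 and 0.47 beside neighbour medians of -0.58 and -0.52, PSMD2 on chromosome 3 fell by 0.44 beside -0.53, and PSMD11 on chromosome 17 fell by 0.41 beside -0.49. Other members moved away from near neighbours. PSMC2, also on chromosome 7, rose by 0.76 among 115 neighbours with a median of 0.01. PSME1 and PSME2, next to each other on chromosome 14, fell by 0.81 and 0.63 beside 0.02 for 78 neighbours. PSMG4 on chromosome 6 fell by 0.89 beside -0.17, PSMB3 on chromosome 17 fell by 0.79 beside -0.17, PSMC4 on chromosome 19 fell by 0.34 beside 0.14 and PSME4 on chromosome 2 rose by 0.47 beside 0.07. Of the 24 called members, 9 lay between the lower and upper quartile of their neighbours, as did 20 of the 22 not called. These quartiles mostly span 0, so members with small changes tend to lie between them. The contrast thus follows in part from the call itself, and the same shares over all genes were not computed. The part of the neighbourhood in these differences was not tested.

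**Figure D5:**
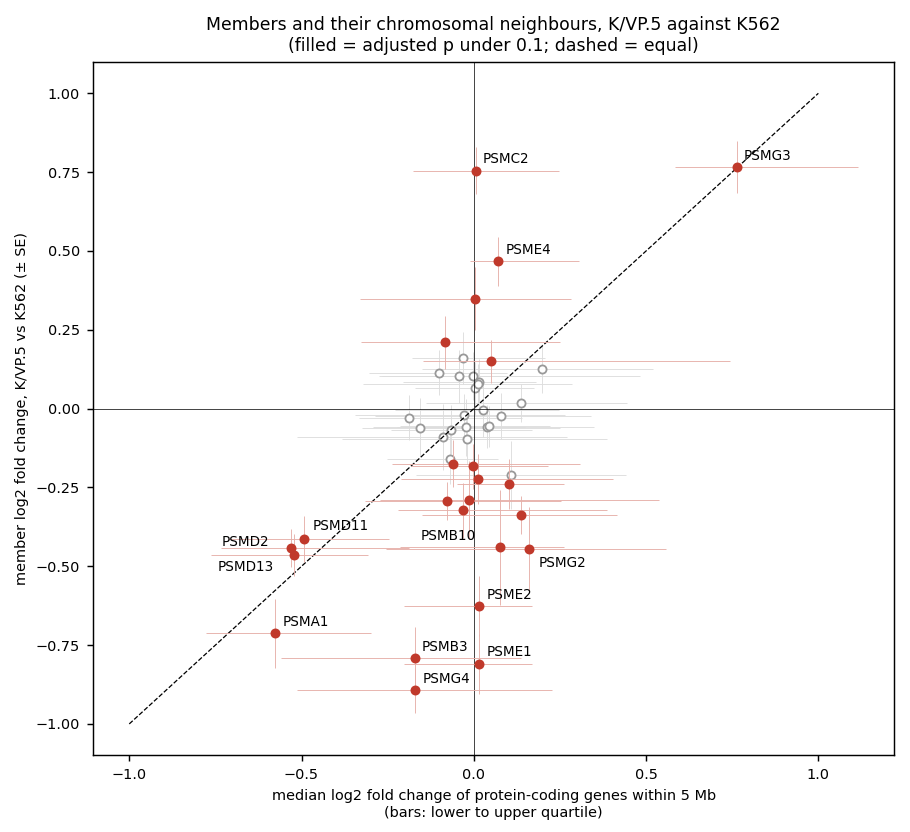
Log2 fold change of each tested member in K/VP.5 against K562 (vertical, ± SE) by the median of protein-coding genes within 5 Mb (horizontal, bars from lower to upper quartile), filled where the adjusted p was under 0.1. PSMG3, PSMA1, PSMD13, PSMD2 and PSMD11 lie near the line of equality, while PSMC2, PSME1, PSME2, PSMB3 and PSMG4 lie far from it.

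The second comparison asked how the subunit genes differed between the edited clone K562/SSedit-2 and its parent. It shares the K562 samples with the first. The main fit left out a possible pairing of these lines by replicate number, and the counts of the blocked fit are given below. Of the 46 members, 3 rose (PSMA5, PSMC3IP and PSMD10), 1 fell (PSMB2), and none changed by 2-fold, beside 4.86%, 7.79% and 2.06% of all tested genes that rose, fell or passed 2-fold. Of the 12869 tested protein-coding genes, 715 rose and 1322 fell. An unadjusted p under 0.05 was seen for 13 members. The lines did not overlap for 5 members that were higher and 0 that were lower, beside 5.47% and 7.78% of all genes. The median log2 fold change was 0.08 over the members (0.051 to 0.104 when 1 replicate was left out) and -0.01 over all tested genes.

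PSMA5, an alpha subunit, was at 212, 256, 245 and 242 CPM in K562, at 294, 228, 262 and 257 CPM in K/VP.5 and at 326, 321, 333 and 347 CPM in K562/SSedit-2. The edited clone lay above every other sample, with a log2 fold change of 0.48 ± 0.08 against K562 (ratio 1.39, adjusted p = 9.78e-04) and 0.35 ± 0.08 against K/VP.5 (adjusted p = 1.32e-03). PSMC3IP was at 8.77, 10.2, 11.6 and 10.48 CPM in K562, at 12.04, 13.3, 12.7 and 14.4 CPM in K/VP.5 and at 12.3, 14.1, 12.9 and 14.3 CPM in K562/SSedit-2. It was higher in both derived lines than in any K562 sample, by log2 fold changes of 0.35 ± 0.10 in K/VP.5 and of 0.38 ± 0.10 in the edited clone (adjusted p = 9.17e-03 and 0.0267). PSMD10, a cap chaperone also known as gankyrin, was at 54.2, 77.2, 76.2 and 70.2 CPM in K562, at 68.9, 61.6, 68.8 and 67.2 CPM in K/VP.5 and at 80.3, 79.9, 88.9 and 85.2 CPM in K562/SSedit-2. Its log2 fold change in the edited clone was 0.27 ± 0.09 (adjusted p = 0.0949) and 0.17 ± 0.06 without K562 replicate 1, its lowest sample (adjusted p = 0.0980), and that of PSMB2 was -0.29 ± 0.09 (adjusted p = 0.0537).

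The PSMD10 and PSMB2 calls were lost under 8 and 6 of 17 alternatives, whereas those of PSMA5 and PSMC3IP were kept under all of them. Samples of the edited clone deviated together with the K562 samples of the same number, and in the fit blocked by replicate number 5 members rose and 2 fell, with PSMB7, PSMC5 and PSMB3 added to the 4. Without K562 replicate 1, 7 members rose and 1 fell, with PSMB1, PSMD6, PSME4 and PSMG2 added, and without K562 replicate 4, 5 rose and 2 fell. Across the groups, 0 of the 17 cap subunits were called, beside 4.86% of all tested genes that rose and 7.79% that fell, and the 6 ATPases had log2 fold changes of 0.09 to 0.20, which were 0.007 to 0.14 without K562 replicate 1. Under 5 alternatives 1 cap subunit was called higher (PSMC5 or PSMD6). PSME1, PSME2 and PSME3 had log2 fold changes of 0.11, -0.01 and 0.00, and PSMG1 to PSMG4 of -0.14 to 0.08.

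The third comparison set the resistant lines against each other and shares samples with both others. Relative to K/VP.5, 23 members were higher in the edited clone and 4 lower (PSMC2, PSMG3, PSME4 and PSMD4), beside 26.2% and 27.8% of all tested genes. Of the 12869 tested protein-coding genes, 3905 were higher and 4074 lower. A 2-fold difference was reached by 0 members and by 15.8% of all genes, with 27 members at an unadjusted p under 0.05. Without K/VP.5 replicate 1, 1 member (PSME1) passed it. The PSMD4 call was lost when any 1 of 6 libraries was left out, and that of PSMD12, among the 23, under 6 of 17 alternatives. The lines did not overlap for 19 members higher in the edited clone and 4 lower, which is 41.3% and 8.70% of members beside 22.7% and 24.7% of all genes. The median log2 fold change was 0.14 over the members (0.13 to 0.196 when 1 replicate was left out) and -0.01 over all tested genes. By role, 6 of 7 alpha subunits, 3 of 4 structural beta subunits, 8 of 17 cap subunits and 4 of 7 chaperones were higher in the edited clone, and 0 of the 3 ordinary active-site subunits differed. The largest differences were those of PSME1 (log2 fold change 0.92 ± 0.10, adjusted p = 6.63e-07), PSMG4 (0.75 ± 0.07, adjusted p = 2.37e-07), PSMG3 (-0.72 ± 0.08, adjusted p = 1.83e-06), PSMA1 (0.65 ± 0.11, adjusted p = 1.34e-04) and PSME2 (0.61 ± 0.10, adjusted p = 5.89e-05).

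Genes that work with the proteasome outside the symbol pattern were described from 4 lists. Of all tested genes, for reading their counts, 26.2% rose and 26.1% fell in K/VP.5, 4.86% rose and 7.79% fell in the edited clone, and 26.2% were higher and 27.8% lower in the edited clone relative to the selected line. Of 11 other components and assembly factors, 1 rose and 5 fell in K/VP.5 against K562, 3 rose and 0 fell in K562/SSedit-2, and 7 were higher and 1 lower in the edited clone relative to the selected line (median log2 fold changes -0.03, 0.10 and 0.30). POMP, the chaperone that brings the beta subunits onto the ring, rose in both lines, by 0.33 ± 0.08 in K/VP.5 and by 0.28 ± 0.08 in the edited clone on the log2 scale (adjusted p = 1.92e-03 and 0.0329). Without K562 replicate 2 the second call was lost (adjusted p = 0.101), and 1 gene of this list in place of 3 rose in the edited clone. The largest falls in K/VP.5 were those of FBXO7, a ubiquitin ligase subunit that binds PSMF1 (-0.50 ± 0.08), and PAAF1, a cap chaperone (-0.36 ± 0.07). In K562/SSedit-2 SEM1, a small cap subunit, rose by 0.43 ± 0.10 on the log2 scale.

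Of 12 transcription factors of proteasome genes and the proteins that process them, 1 rose and 4 fell in K/VP.5, 1 rose and 0 fell in K562/SSedit-2, and 5 were higher and 1 lower in the edited clone relative to the selected line (medians -0.10, 0.01 and 0.06). Without K562 replicate 1, 2 rose and 2 fell in K562/SSedit-2, with NFE2L2 at 0.32 in place of 0.02 (adjusted p = 0.0208). NFE2L1, which induces subunit genes when the proteasome is inhibited, was at mean levels of 198 CPM in K562, 187 CPM in K/VP.5 and 177 CPM in the edited clone, and passed the test in no comparison with all 12 samples. Without K562 replicate 1 it fell in both derived lines, by 0.17 ± 0.06 and 0.23 ± 0.06 on the log2 scale (adjusted p = 0.0203 and 0.0171). In K/VP.5 its relative NFE2L2 had a log2 fold change of -0.80 ± 0.17 (adjusted p = 1.24e-03; -0.53 ± 0.08 without K562 replicate 1), NGLY1, which removes sugars from NFE2L1, of -0.59 ± 0.07, and the small partner MAFK of 1.11 ± 0.13. DDI2, the protease that cleaves NFE2L1, had a log2 fold change of -0.44 ± 0.07 in K/VP.5 and of 0.21 ± 0.07 in the edited clone (adjusted p = 1.08e-04 and 0.0843), the second of which was lost under 6 of 17 alternatives.

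Of 13 genes for ubiquitin, its shuttles and unfolding, 2 rose and 5 fell in K/VP.5, 0 rose and 1 fell in K562/SSedit-2, and 3 were higher and 2 lower in the edited clone relative to the selected line (medians -0.06, 0.06 and 0.05). The counts in K562/SSedit-2 became 2 that rose (UFD1 and RAD23B) and 0 that fell without K562 replicate 1. In K/VP.5 ZFAND2A, a stress-induced protein that binds the proteasome, rose by 1.45 ± 0.13 and VCP, the unfolding ATPase, by 0.53 ± 0.06 on the log2 scale, while ZFAND5 fell by 0.65 ± 0.11 and the shuttle UBQLN1 by 0.59 ± 0.06. UBQLN4 was the member of this list that fell in K562/SSedit-2, by 0.20 ± 0.07 on the log2 scale, a call lost under 11 of 17 alternatives.

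Of 12 interferon regulators and neighbours of PSMB8 and PSMB9 in the MHC region, 11 were tested. In K/VP.5, 2 rose and 4 fell, in K562/SSedit-2 2 rose and 1 fell, and 4 were higher and 3 lower in the edited clone relative to the selected line (medians -0.07, 0.07 and 0.16). IRF1, an activator of immunoproteasome genes, rose from 4.33 to 7.97 CPM in K/VP.5 (log2 fold change 0.88 ± 0.12, adjusted p = 1.87e-05), and IRF2, its antagonist, had a log2 fold change of -0.94 ± 0.11. TAP1, the peptide transporter gene beside PSMB9, was at mean levels of 1.412 CPM in K562, 1.38 CPM in K/VP.5 and 1.55 CPM in the edited clone, and it passed the test in no comparison. TAP2, its partner in the transporter, had a log2 fold change of -0.81 ± 0.13 in K/VP.5. The kinase gene JAK2 rose in both derived lines, by 0.37 ± 0.06 in K/VP.5 and by 0.23 ± 0.06 in the edited clone on the log2 scale, and in the edited clone JAK1 rose by 0.27 ± 0.08 and the interferon-gamma receptor gene IFNGR2 fell by 0.49 ± 0.16. In the edited clone the JAK2 call was lost under 1, the JAK1 call under 5 and the IFNGR2 call under 7 of 17 alternatives, and without K562 replicate 1 IFNGR2 was at -0.23 ± 0.09 (adjusted p = 0.107).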

How the data were processed

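RNA of 12 samples, 4 of each line, had been sequenced as paired 150-base reads, mapped by the authors to GRCh38 with HISAT 2.1.0 and counted per gene with featureCounts. The deposited values are raw counts per Ensembl gene. The annotation release, strand setting and treatment of multi-mapping reads are not given in the sources used here. Gene types, exon lengths and positions came from GENCODE 44, which holds 60401 of the 60671 genes, and promoters from RefSeq. Members were protein-coding genes whose symbols match the PSMA to PSMG pattern. The members and gene lists were chosen with earlier results of these data known.

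Counts of all 12 samples were fitted together in edgeR 4.0.16 (R 4.3.3; glmQLFit, glmQLFTest) with TMM scaling, filterByExpr with a minimum count of 10 and line as the only term. The call was an adjusted p under 0.1 (Benjamini-Hochberg over 18626 genes), and a 2-fold change was counted separately. Each SE was obtained as the size of the log2 fold change over the root of its F value. CPM is the count per 1000000 tested reads after TMM scaling. Ratios of immune to ordinary subunits used counts plus 0.5 and two-sided exact permutation tests (SciPy 1.17.1), with no ratio for PSMB8, which had at most 3 counts in every library. The limit that a count of 0 allows covers counting error only. With 28981722 to 43648830 counted reads a library, 3 counts correspond to 0.0691 to 0.102 CPM. The scripts were tested on simulated data. Values in every sample were given for the active-site subunits of both forms, for any member past 2-fold and for the 5 largest called changes of each comparison. From the lists, the genes named were the 2 largest called rises and falls of a list in either comparison with K562, with POMP, NFE2L1, IRF1 and TAP1, and 1 further gene is not reported here.

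Samples of K562 and of the edited clone K562/SSedit-2 with the same number deviated together from their line means (correlation over genes 0.23 to 0.38, mean 0.30, against -0.10 for unlike numbers). Those of K/VP.5 with K562 (-0.01 to 0.32) and with K562/SSedit-2 (-0.18 to 0.21) did not. The numbers may thus pair the samples of K562 and the edited clone. The main fit and the main ratio tests left this pairing out, and tests blocked by replicate number were run as alternatives. Alternatives were RLE and upper-quartile scaling, DESeq2 1.42.0, limma 3.58.1 voom, other filters, fits of the compared lines alone, a replicate block, an adjusted p under 0.05 and leaving out each replicate.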

Additional observations from a re-analysis of the deposited data

Results flagged for a closer look

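In 13 of 138 groups of 4 samples, 1 per tested member and line, the highest or lowest sample lay farther from the rest than Dixon's 95% critical value allows, a value that chance passes in about 1 in 20 groups. K562 replicate 1 gave 7 of them. It was high for PSMA1 (42.1 CPM, others 27.9 to 30.2), PSMD3 (314.5 CPM, others 204 to 222), PSMD8 (231 CPM, others 154 to 160), PSMG2 (56.5 CPM, others 34.6 to 36.5), PSMF1 (115.5 CPM, others 97.6 to 99.1) and PSMD7 (54.2 CPM, others 47.9 to 48.4), and low for PSMC6 (78.9 CPM, others 99.4 to 103). In K/VP.5, replicate 1 was high for PSMB7 (313 CPM) and PSMD7 (46.2 CPM), and replicate 3 for PSMD11 (190 CPM, others 186.5 to 187). In K562/SSedit-2, replicate 3 was low for PSMA1 (28.3 CPM) and high for PSMD13 (281 CPM), and replicate 4 was high for PSMC1 (75.8 CPM).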

How the results depend on the processing

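No called result turned its direction under the alternatives run. Among values that did not pass the test, the PSMB9 to PSMB6 difference of -0.08 for K/VP.5 against K562 ran from -0.37 to 0.20 and the PSMB10 to PSMB7 difference of 0.10 for K562/SSedit-2 against K/VP.5 from -0.10 to 0.24 when 1 replicate was left out, and uncalled members such as PSMA1 in K562/SSedit-2 (-0.06, range -0.13 to 0.09) also crossed 0. Of 211 alternative values for counts of members and for ratios, 189 kept their side of the threshold or stayed within 1.5 times. The next counts cover only members that were called in a comparison or given in every sample. Of their alternative values, 1237 kept their side of the threshold, 63 lost a call and 9 gained one. A further 9 values, all levels per length, moved. Other members and the list genes are not counted here. Among the list genes UBQLN4 lost its call in the edited clone under 11 of 17 alternatives. For K562/SSedit-2 against K562 the count of members that fell was 1, and it became 2 without the filter on low counts and with the replicate block, and 0 with only the 2 lines compared and at an adjusted p under 0.05; it ran from 0 to 2 when 1 replicate was left out. The count that rose was 3, became 5 with the replicate block, and ran from 2 to 7 when 1 replicate was left out. For K562/SSedit-2 against K/VP.5 the count past 2-fold ran from 0 to 1 when 1 replicate was left out, and for K/VP.5 against K562 it stayed at 0. The PSMB10 to PSMB7 log2 difference of -0.49 in K562/SSedit-2 kept its value with the replicate block (-0.49, exact p = 0.125, the smallest that 4 pairs allow) and ran from -0.57 to -0.37 when 1 replicate was left out, where the exact test has fewer samples. For K/VP.5 against K562, 18 of the 24 calls were left without K/VP.5 replicate 4. The block changed no other count by over 1.5 times. With 0 counts in a K562/SSedit-2 library, PSMB9 ratios without an added count could not be given for that line. Levels per kilobase of the longest coding transcript were higher than those over all exon bases (340 against 186.5 CPM per kb for PSMA7 in K562). The summed level of the members was also computed with RLE and upper-quartile scaling, an alternative chosen after seeing the data. The cause of these changes was not tested. Depth limits PSMB8, PSMA8 and PSMB11, whose counts allow no comparison, and PSMB9, whose ratios rest on 0 to 16 counts a library.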
